A study of Mus musculus with 48 samples.

Results

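Female mouse livers with and without a gut microbiome were compared here through 24 RNA libraries, 12 germ-free (GF) and 12 conventionally raised (convR), which are 24 of the 48 libraries of the series. The libraries were assigned by their labels (female sex and microbiome status). The labels give C57BL/6j mice aged 15-16 weeks with free access to food for all 24. Both groups were sampled at 6 zeitgeber times (ZT, hours on the light-dark schedule) from ZT2 to ZT22 in equal steps, and each ZT and status has 2 libraries. The effect of GF status was taken as the difference from convR averaged over the 6 ZT. The other 24 libraries, 12 GF and 12 convR males of the same strain and age, were used only to ask where the female response differed. The labels number libraries 1 and 2 without saying that each came from its own animal, so the p-values measure the spread between these libraries. How germ-free status was checked is not given in the sources used here.

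Blood from the gut reaches the liver through the portal vein and carries microbial products with it. Gut bacteria deconjugate and dehydroxylate the bile acids that the liver makes and conjugates with taurine. Some microbial metabolites are ligands of hepatic receptors such as PXR, the nuclear receptor that drives Cyp3a genes, and microbial cell-wall products are sensed through Toll-like receptors. The liver also runs a circadian clock whose transcription factors set the daily rhythm of many metabolic genes.

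Counts per library summed to between 35575672 and 41536942 in convR and between 31637260 and 40973154 in GF. Levels below are CPM, the gene's count scaled to the same library total (n = 12 libraries a group). 3 GF libraries stood apart, replicate 2 at ZT2, ZT6 and ZT10. Nnt, which encodes the NAD(P) transhydrogenase of mitochondria and was picked once its values were known, reached 173 to 186 CPM in them. The range was 56.5 to 75.5 CPM for the 9 remaining GF libraries and 54.7 to 70.6 CPM for convR. Strain C57BL/6J is known to carry a deletion in Nnt, and whether these 3 libraries come from the labelled strain was not tested. Another GF library, ZT22 replicate 1, held 10 pancreas genes at a summed 423 CPM. Results are given over all 24 libraries and, where they moved, without the 3 libraries high in Nnt.

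Of 16574 genes tested, 2417 (14.6%) passed an adjusted p of 0.05 for GF against convR females. GF was higher for 1161 (7%) and lower for 1256 (7.58%). These shares over all genes are the background for the list counts below. The test was edgeR's quasi-likelihood F test with p-values adjusted over all genes by the Benjamini-Hochberg method. Most changes were small, and 276 of the 2417 reached a log2 fold change of 1 in either direction. Without the 3 libraries high in Nnt, 2542 of 17020 genes (14.9%) passed, 1040 (6.11%) higher and 1502 (8.82%) lower, and all 1903 genes called in both fits kept their direction. The median log2 fold change over all genes was -0.00 after TMM scaling and -0.12 with library size as the only scaling, where 4082 genes passed and 469 of them were higher. The GF and convR libraries did not overlap in CPM at all for 35 genes (0.211%), of which 2 (0.0121%) were higher and 33 (0.199%) lower. CPM is scaled by library total only, the setting in which the median was -0.12. The part of this scaling in the split was not tested.

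The genes with the firmest increases were led by Oat, the ornithine aminotransferase that feeds ornithine into glutamate (ENSMUSG00000030934, chromosome 7, 132557478 to 132576398). Oat stood at 506 to 1023 CPM in convR (median 680) and 851 to 1567 CPM in GF (median 1318). Only the lowest GF library, from ZT18, fell inside the convR range, and the log2 fold change was 0.999 ± 0.06 SE, edgeR adjusted p = 8.96e-08. Agxt, which detoxifies glyoxylate in peroxisomes, measured 113 to 344 CPM in convR (median 230.3) and 207 to 729 CPM in GF (median 392), with overlap (0.88 ± 0.07 SE, edgeR adjusted p = 3.37e-06). Ahcy, which clears S-adenosylhomocysteine, rose by 0.61. Zap70, a kinase of T cell receptor signalling, was 1 of the 2 genes whose GF libraries all lay above convR, at 6.3 to 11.5 CPM in convR (median 8.68) and 11.7 to 17.2 CPM in GF (median 15.1) (0.92 ± 0.10 SE, edgeR adjusted p = 3.60e-05). Fbln2, a matrix protein of vessel walls, rose by 0.83, and Slc1a2, a glutamate transporter, by 0.60. Tspyl4 (1.36) and Lrrc61 (0.61) also rose, and each overlaps another gene on the opposite strand in GENCODE M21.

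Several of these genes are neighbours or share sequence. Fgfr2 (0.84) and Lhpp (0.89), both higher, lie with Oat on chromosome 7. The Fgfr2 model of GENCODE M21 runs from 130162451 to 133123350, a stretch that contains Oat and Lhpp. Fgfr2 has an exon length of 138568 bases in the deposited counts, while no exon of Oat overlaps another gene in GENCODE M21. The CPM of Fgfr2 was 1.21 to 1.34 times that of Oat in every convR library and 1.13 to 1.19 times in every GF library. The 2 values therefore tracked each other from library to library, and how the counting split their reads is not given in the sources used here. Ang and Rnase4, secreted ribonuclease genes on chromosome 14, rose by 0.83 and 0.76 and share exons on the same strand. The count for either gene of such a pair is uncertain.

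The firmest decrease was in Cyp3a11, the main drug-oxidising cytochrome P450 of its family in mouse liver (ENSMUSG00000056035, chromosome 5, 145854426 to 145879964). It measured 2181 to 3734 CPM in convR (median 3015) and 604 to 1339 CPM in GF (median 816). The highest GF library lay well under the lowest convR library, and the log2 fold change was -1.74 ± 0.09 SE, edgeR adjusted p = 9.73e-09. Pltp, the phospholipid transfer protein of plasma lipoproteins (ENSMUSG00000017754, chromosome 2), measured 46.6 to 104 CPM in convR (median 64.5) and 16.6 to 40.4 CPM in GF (median 24.4), again with no overlap (-1.26 ± 0.11 SE, edgeR adjusted p = 8.16e-06). Csad, which makes the taurine precursor hypotaurine, measured 47.8 to 535 CPM in convR (median 213) and 8.28 to 55.4 CPM in GF (median 18.8). Its ranges met only at the edge, where convR at ZT10 was lowest and GF at ZT6 was highest, and the log2 fold change was -3.23 ± 0.24 SE, edgeR adjusted p = 8.80e-07.

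The ranges did not meet for 4 more of the firmest decreases. Med12l, a Mediator subunit, measured 4.76 to 13.4 CPM in convR (median 8.64) and 1.58 to 4.14 CPM in GF (median 3.14), a log2 fold change of -1.49. Wfdc2, an epithelial protease inhibitor, measured 1.66 to 4.24 CPM in convR (median 3.09) and 0.659 to 1.62 CPM in GF (median 0.979), a change of -1.51. Atad2, a chromatin ATPase of dividing cells, fell by 0.73 and the imprinted sarcoglycan gene Sgce by 0.73 on the log2 scale. Pparg, the lipid-storage nuclear receptor, fell by 0.79 on the log2 scale and Rps6ka1, a kinase downstream of ERK, by 0.76. Gas2l3 (-0.78), a cytoskeletal linker of dividing cells, Ptp4a3 (-0.67), a phosphatase, Scai (-0.60), Adam11 (-1.35), Sytl5 (-1.38) and Pydc4 (-0.79) also fell. Sytl5 lost its call over ZT14, ZT18 and ZT22 alone (-0.55, edgeR adjusted p = 0.156). So did Sgce and Pydc4 (edgeR adjusted p = 0.0623 and 0.0575). Part of the exons of Pltp, Med12l and Csad overlaps a gene on the opposite strand (19.3%, 15.3% and 7.26% of their length), and the use of strand in counting is not known.

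**Figure D1:**
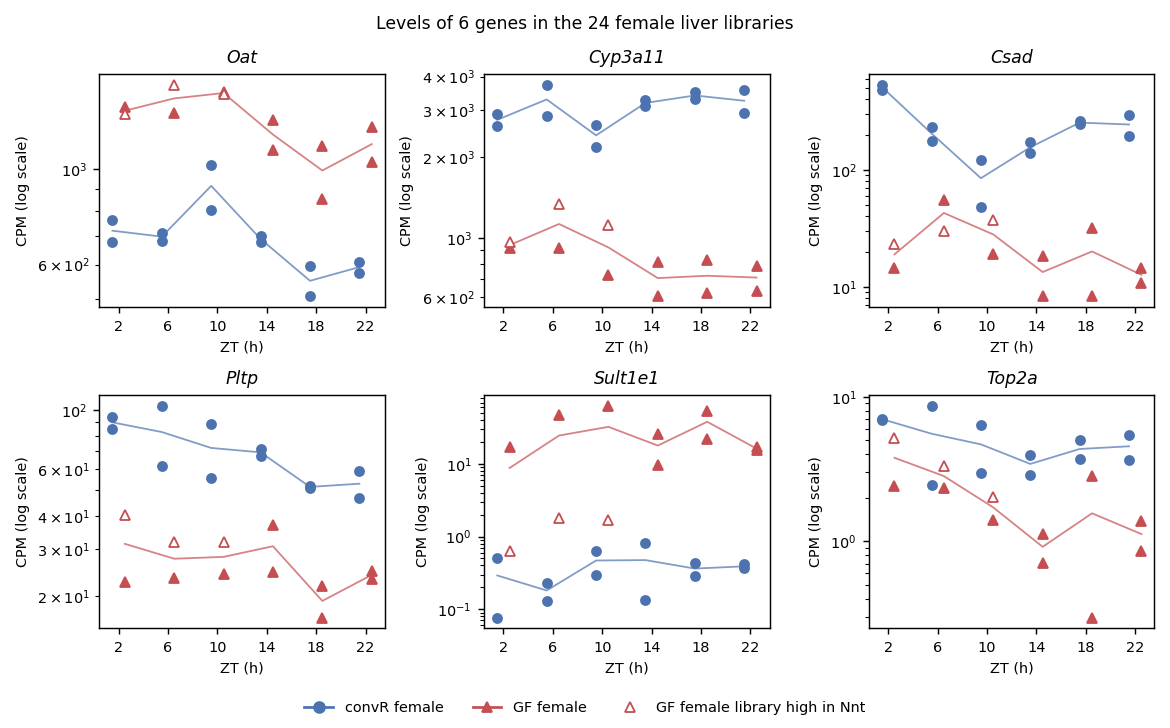
CPM on a log scale (vertical axis) against ZT in hours (horizontal axis) for Oat, Cyp3a11, Csad, Pltp, Sult1e1 and Top2a. Circles are convR and triangles GF female libraries, open triangles are the 3 GF libraries high in Nnt, and lines join the means of 2 libraries. GF points lie above convR for Oat and Sult1e1 at every ZT and below convR for Cyp3a11 and Pltp, and the open triangles of Sult1e1 lie lower than every other GF triangle.

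Genes of amino acid breakdown and the urea cycle, the pathway that turns amino nitrogen into urea, included many that were higher in GF. Of 37 members tested 21 rose, 0 fell and 16 did not pass, with a median log2 fold change of 0.37 against -0.00 over all genes, and without the 3 libraries 23 were higher and 1 lower. With library size as the only scaling 17 were higher and 1 lower. Beside Oat and Agxt these included Got1, the cytosolic aspartate aminotransferase, at 134 to 356 CPM in convR (median 209) and 165 to 734 CPM in GF (median 362) (0.94 ± 0.17 SE, edgeR adjusted p = 0.00253). Slc7a2, the cationic amino acid carrier, rose by 0.75, Kynu of tryptophan breakdown by 0.61, Hgd of tyrosine breakdown by 0.56 and the glutaminase Gls2 by 0.53. In the urea cycle itself Cps1, its entry enzyme, rose by 0.52, Ass1 by 0.59 and Arg1 by 0.40. Cps1 stood at 5722 to 9277 CPM in convR (median 6407) and 6719 to 10882 CPM in GF (median 9275), so that the ranges overlapped broadly. Otc, the second enzyme of the cycle, measured -0.01 and did not pass.

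Markers of hepatocytes moved with this list. Of the 10 fixed markers 6 were higher and 0 lower, among them transferrin (Trf, 0.37). Their summed level was 122063 to 146963 CPM in convR, 160473 to 181851 CPM in 9 GF libraries and 129178 to 134350 CPM in the 3 GF libraries high in Nnt. The amino acid genes summed to 26184 to 36920 CPM in convR, 31477 to 39578 CPM in the 9 and 30611 to 35701 CPM in the 3. The part of the marker difference in the result was not tested. In bulk tissue, fewer cells of a type and less RNA per cell cannot be told apart.

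Sulfur amino acid genes moved both ways. Of 24 tested 7 rose and 4 fell, with a median of 0.06, and without the 3 libraries 8 were higher and 4 lower. Genes of the methionine cycle and of the route from homocysteine to cysteine were among those that rose. Mat1a, which makes S-adenosylmethionine, rose by 0.62, Gnmt by 0.41, and Cbs and Cth, the successive transsulfuration enzymes, by 0.59 and 1.07. Cth measured 177 to 437 CPM in convR (median 369.8) and 367 to 1519 CPM in GF (median 535), and its highest GF library lay far above the rest of the group. Csad, the exit from cysteine towards taurine, moved the other way, while Cdo1, the step before it, measured 0.14 and did not pass.

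Bile acid synthesis genes, which turn cholesterol into bile acids, also moved in both directions. Of 15 tested 2 rose and 3 fell (2 and 5 without the 3 libraries), with a median of 0.01. Cyp8b1, the 12α-hydroxylase that sets the share of cholic acid, was lower at 50.3 to 357 CPM in convR (median 178) and 15.8 to 127 CPM in GF (median 41.1) (-1.67 ± 0.27 SE, edgeR adjusted p = 0.00115). Cyp7a1, which starts the classic route, fell by 1.17 on the log2 scale, a call that was lost without ZT2 (adjusted p = 0.0545) and over ZT14, ZT18 and ZT22 alone (-0.60, adjusted p = 0.195). Cyp2c70, which makes muricholic acids in mice, rose by 0.49. Of 17 genes of bile acid transport and signalling 2 were higher (Nr5a2 0.26 and Klb 0.28) and 0 lower, 11.8% against 14.6% over all genes. The export pump Abcb11 measured 0.03 and did not pass.

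Cyp3a genes did not share 1 direction. Of 9 tested 2 rose and 2 fell, with and without the 3 libraries. Cyp3a59 fell with Cyp3a11 (-0.86), while Cyp3a13 (0.35) and Cyp3a44 rose. Cyp3a44 measured 25.5 to 262 CPM in convR (median 65.9) and 37.5 to 460.2 CPM in GF (median 246), a wide overlap (1.61 ± 0.35 SE, edgeR adjusted p = 0.00653). The summed CPM of the 9 genes was 3112 to 4835 in convR and 1808 to 2575 over all GF libraries, with no overlap. Some members of the Cyp3a, Cyp2, Ugt2b, Gst, Sult2a and H2-Q families are close in sequence, so the split of reads between those members is uncertain.

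Other drug-oxidising and ester-cleaving genes depended on which GF libraries were counted. Of 41 tested 7 rose and 4 fell, but without the 3 libraries high in Nnt 2 were higher and 10 lower, and the median went from 0.02 to -0.15. The carboxylesterases Ces2a and Ces2e fell in both fits. Ces2e measured 178 to 278 CPM in convR (median 210.2) and 48.4 to 155 CPM in GF (median 127) with no overlap (-0.76 ± 0.14 SE, edgeR adjusted p = 0.00234), and Ces2a fell by 0.87 on the log2 scale. Cyp2b10, a target of the receptor CAR, stood at 20.2 to 84.7 CPM in convR, 2.85 to 35.6 CPM in 9 GF libraries and 36.7 to 209 CPM in the 3. Over all 24 libraries it did not pass (-0.91 ± 0.45 SE, edgeR adjusted p = 0.193), and without the 3 it was lower (-2.38, adjusted p = 3.83e-05). Cyp2d9, a P450 usually higher in males, rose and measured 6.37 to 32.6 CPM in convR (median 21.6) and 17.8 to 68.8 CPM in GF (median 40.2), a log2 fold change of 1.16.

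Among conjugation genes Sult1e1, the estrogen sulfotransferase (chromosome 5, 87575969 to 87591594), stood at 0.0767 to 0.816 CPM in convR. In 9 GF libraries it stood at 9.66 to 63 CPM, and in the 3 high in Nnt at 0.632 to 1.79 CPM, the lowest of which lay inside the convR range. The log2 fold change was 6.02 ± 0.76 SE, edgeR adjusted p = 1.98e-04 over all 24 libraries and 6.49 without the 3. Of 22 sulfation genes 3 were higher and 5 lower (3 and 7 without the 3). Gal3st1, which makes sulfatide, fell by 1.53 on the log2 scale, Sult2a3, a hydroxysteroid sulfotransferase, by 2.45 and Sult5a1 by 1.32, while the phenol sulfotransferase Sult1a1 rose by 0.50. The Sult2a3 call was lost over ZT14, ZT18 and ZT22 alone (edgeR adjusted p = 0.174). Of 34 glucuronidation and glutathione transferase genes 11 rose and 0 fell, among them Gstt3 (0.55), Gstm7 (0.57), Gstk1 (0.31) and Ugt2b1 (0.49). Without the 3 libraries 8 were higher and 2 lower, and with library size as the only scaling 7 and 7, so the one-sided direction did not hold under either.

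Lipid pathways were also sensitive to the 3 libraries. Of 25 cholesterol synthesis genes 0 were higher and 1 lower over all 24 libraries, and 0 higher and 12 lower without the 3, with medians of -0.22 and -0.49. Hmgcs1, an early enzyme of the pathway, measured -0.63 and did not pass over all libraries (adjusted p = 0.114), and fell without the 3 (-0.98, adjusted p = 0.00631). Idi1 likewise went from -0.54 (adjusted p = 0.195) to -0.92 (adjusted p = 0.00583).

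Of 28 lipogenesis genes, which build fatty acids and triglycerides, 4 rose and 7 fell (3 and 7 without the 3), with a median of -0.33. Scd1, the stearoyl-CoA desaturase, measured 4643 to 11942 CPM in convR (median 8254) and 1529 to 9556 CPM in GF (median 4488) (-0.75 ± 0.20 SE, edgeR adjusted p = 0.0184), and Me1, which supplies NADPH, fell by 0.74 on the log2 scale. Both calls were lost without ZT6 (adjusted p = 0.112 and 0.0667) and over ZT14, ZT18 and ZT22 alone, where 1 list member was lower. Of 34 genes of PPARα, the fatty acid receptor, and of fatty acid oxidation, 3 were higher and 3 lower, and without the 3 libraries 3 and 11. The share over all 24 libraries was 17.6%, near the 14.6% over all genes. Fabp1, the liver fatty acid binding protein, measured -0.62 over all libraries (adjusted p = 0.0888) and -1.10 without the 3 (adjusted p = 4.82e-04).

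**Figure D2:**
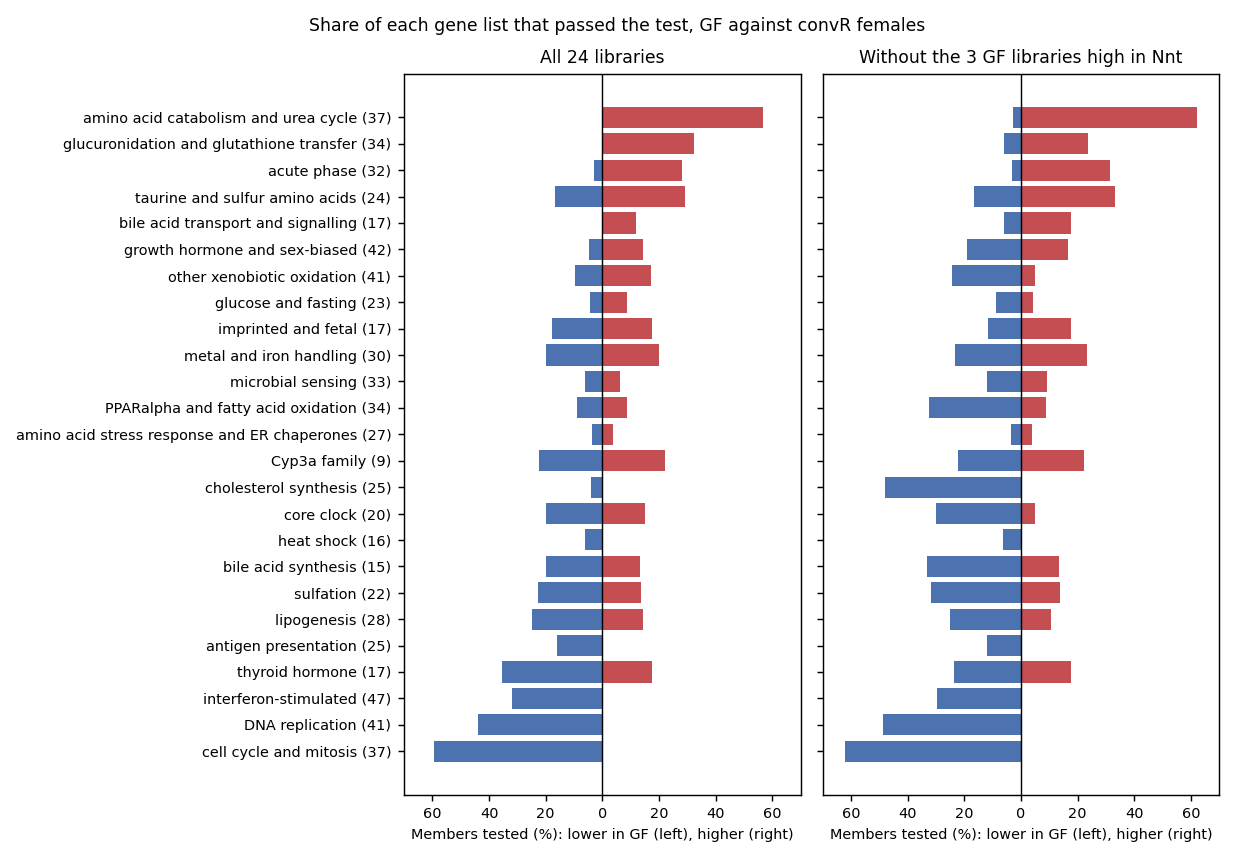
Percent of the tested members of each of 25 pathway lists, cell type markers not included (number tested in brackets, vertical axis), called lower in GF (bars to the left) or higher (bars to the right) at an edgeR adjusted p under 0.05, with all 24 libraries and without the 3 GF libraries high in Nnt. Amino acid and urea genes extend furthest to the right and cell cycle genes furthest to the left in both panels, while the bar of cholesterol synthesis goes from 1 to 12 of 25 genes.

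Among genes of DNA replication and mitosis, all that passed were lower in GF females, at low absolute levels. Of 41 replication genes 18 were lower and 0 higher, with a median of -0.29, and of 37 cell cycle genes 22 were lower and 0 higher, with a median of -0.84. Without the 3 libraries 20 and 23 were lower and 0 of either list higher, and with library size as the only scaling 35 and 24 were lower. Their summed levels were 303 to 443 CPM in convR against 219.9 to 305 CPM in the 9 and 289.5 to 345 CPM in the 3 GF libraries for replication. For the cell cycle list they were 198 to 423, 95.6 to 232 and 176 to 253 CPM.

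Genes that license and unwind DNA were among the replication genes that fell. Cdc6, which loads the helicase, fell by 1.24 on the log2 scale and Gins2, a helicase partner, by 1.37. The helicase subunits Mcm2, Mcm3, Mcm4, Mcm5 and Mcm6 measured -0.79, -0.58, -0.66, -1.13 and -0.90, all lower, while Mcm7 measured -0.13 and did not pass. Mcm6 stood at 6.45 to 20.6 CPM in convR (median 9.55) and 2.23 to 9.23 CPM in GF (median 4.83) (-0.90 ± 0.20 SE, edgeR adjusted p = 0.00669). Mcm10 (-0.47) and the primase-polymerase subunit Pola1 (-0.51) were lower, and so was Uhrf1 (-1.52), which acts in the maintenance of DNA methylation. The sliding clamp gene Pcna measured -0.07 and did not pass.

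Among mitotic genes Top2a, the topoisomerase that untangles chromosomes, stood at 2.44 to 8.67 CPM in convR (median 4.5) and 0.296 to 5.15 CPM in GF (median 1.71). The ranges overlapped, and 3 GF libraries lay inside the convR range (-1.34 ± 0.27 SE, edgeR adjusted p = 0.00443). Cenpe, a kinetochore motor, fell by 1.51 on the log2 scale, the spindle factor Tpx2 by 1.30, the mitotic kinase Cdk1 by 0.84, the transcription factor Foxm1 by 1.07 and the proliferation marker Mki67 by 0.96. Over ZT14, ZT18 and ZT22 alone 11 replication and 13 cell cycle genes were lower.

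Promoters of both lists often held motifs of their known regulators. In RefSeq windows of 300 bases (250 before to 50 after the start, GRCm38.p6), the E2F motif TTTCCCGC or TTTGGCGC, on either strand, was in 11 of 33 replication genes with a window and in 1.8% of all 27025 genes. The CCAAT box was in 22 of 30 cell cycle genes and in 41.1% of all genes, and the E2F motif in 3 of those 30. Of the 11 replication genes with the motif 6 were called lower. Stretches upstream of the start are shown for 5 genes that fell, on the gene's strand, with the motif in capitals (E2F in Mcm6, Mcm5 and Cdc6, CCAAT or its reverse complement in Top2a and Cdk1).
Mcm6 (chr1:128359730-128359830, minus strand): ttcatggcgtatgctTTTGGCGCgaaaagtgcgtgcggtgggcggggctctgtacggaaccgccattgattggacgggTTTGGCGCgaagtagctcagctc
Mcm5 (chr8:75109345-75109382, plus strand): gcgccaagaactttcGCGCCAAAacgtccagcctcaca
Cdc6 (chr11:98907998-98908035, plus strand): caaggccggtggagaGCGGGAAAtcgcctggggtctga
Top2a (chr11:99024228-99024431, minus strand): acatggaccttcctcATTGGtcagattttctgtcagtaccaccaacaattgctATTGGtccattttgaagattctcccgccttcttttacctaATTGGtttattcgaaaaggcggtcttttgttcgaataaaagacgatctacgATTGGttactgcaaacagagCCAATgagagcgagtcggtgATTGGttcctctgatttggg
Cdk1 (chr10:69352941-69353135, minus strand): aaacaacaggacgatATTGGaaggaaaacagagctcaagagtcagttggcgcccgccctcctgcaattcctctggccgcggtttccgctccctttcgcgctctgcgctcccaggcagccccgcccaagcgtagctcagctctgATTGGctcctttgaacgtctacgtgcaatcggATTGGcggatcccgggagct
Mcm6 holds the E2F motif 2 times and Top2a the CCAAT box 6 times in the stretch shown. A match describes letters only and was not tied to binding in these livers.

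**Figure D3:**
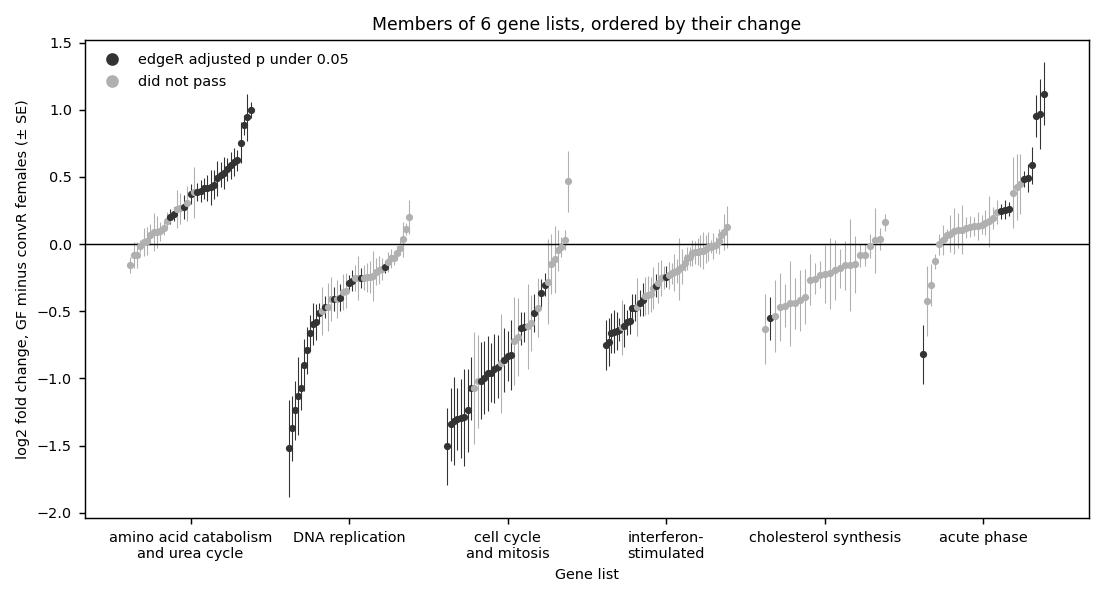
Log2 fold change of GF minus convR females (vertical axis, points with ± SE bars) for each tested member of 6 gene lists (horizontal axis), ordered within a list. Dark points passed the edgeR test at an adjusted p under 0.05. The dark points of the replication, cell cycle and interferon lists all lie below 0, those of the amino acid list all above 0, and the acute phase list has 9 above and 1 below.

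Interferon-stimulated genes, the antiviral set that type I interferon induces, were lower in GF in 15 of 47 cases and higher in 0, with a median of -0.24 (14 lower without the 3 libraries and 24 with library size only). Irf7, the factor that amplifies the response, stood at 26.1 to 39.9 CPM in convR (median 34.6) and 13.1 to 28.1 CPM in GF (median 20.2) (-0.64 ± 0.09 SE, edgeR adjusted p = 3.08e-04). Ifit2 and Ifit3, which act against viral RNA, fell by 0.58 and 0.65 on the log2 scale, the RNA-sensing synthetases Oas2 and Oas1a by 0.57 and 0.48, and the GTPase Mx1 by 0.75. Over ZT14, ZT18 and ZT22 alone 1 list member was lower. The response element, searched as GAAA and GAAA with any 2 bases between them on either strand, was in 20 of 36 members with a promoter window and in 3.99% of all genes, and 8 of the 20 were called lower. The stretches holding it in Ifit3 and Oas1a are shown because both genes fell, with matches in capitals and overlapping matches joined.
Ifit3 (chr19:34583358-34583431, plus strand): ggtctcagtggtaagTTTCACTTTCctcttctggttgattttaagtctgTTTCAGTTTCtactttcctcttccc
Oas1a (chr5:120907526-120907560, minus strand): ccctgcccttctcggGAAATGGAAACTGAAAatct
Both stretches hold 2 matches, which in Oas1a end 4 bases before the annotated start.

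Genes that display or sense microbial molecules moved little as groups. Of 25 antigen presentation genes 4 were lower and 0 higher (3 lower without the 3 libraries), 16% against 14.6% over all genes. H2-Q7, a non-classical class I gene, fell (-0.73 ± 0.13 SE, edgeR adjusted p = 0.0019). Its call was lost over ZT14, ZT18 and ZT22 alone (edgeR adjusted p = 0.162). Of 33 microbial sensing genes 2 were higher and 2 lower (3 and 4 without the 3), a share of 12.1% over all 24 libraries. Tlr5, the flagellin receptor, stood at 2.65 to 6.87 CPM in convR (median 3.83) and 0.995 to 5.08 CPM in GF (median 2.15) (-0.78 ± 0.13 SE, edgeR adjusted p = 0.0011), and Tlr12 fell by 0.57 on the log2 scale. The lipopolysaccharide receptor Tlr4 measured -0.06 and did not pass, while Lbp, the plasma protein that carries lipopolysaccharide, rose by 0.44. The Lbp call was lost without ZT6 (adjusted p = 0.109), and Lbp measured 0.04 over ZT14, ZT18 and ZT22 alone (adjusted p = 0.874).

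Acute phase genes, secreted by the liver in inflammation, were mostly shifted upwards where they passed. Of 32 tested, 9 rose and 1 fell (10 and 1 without the 3), and the list median was 0.15. Haptoglobin (Hp) stood at 1119 to 1879 CPM in convR (median 1387) and 1686 to 5008 CPM in GF (median 2175) (0.95 ± 0.16 SE, edgeR adjusted p = 0.00126), and hemopexin (Hpx) rose by 0.49. Crp rose by 0.48 and serum amyloid Saa1 by 1.12, at 9.51 to 19.2 CPM in convR (median 13.6) and 11.2 to 95.4 CPM in GF (median 19.3). Apoa4, an apolipoprotein, was the 1 gene that fell (-0.82), a call lost without ZT2 (adjusted p = 0.0533) or ZT6. Over ZT14, ZT18 and ZT22 alone 2 members were higher and 0 lower.

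Among 30 metal and iron genes, increases and decreases were equal in number, 6 each (7 each without the 3). The metallothioneins Mt1 and Mt2, small proteins that bind zinc and copper, rose by 1.36 and 1.99. Mt2 measured 3.01 to 84.2 CPM in convR (median 14) and 3.86 to 215 CPM in GF (median 92), with wide overlap, and both calls were lost without ZT10 (adjusted p = 0.0502 and 0.081) and when the library with pancreas genes was left out together with the 3 (adjusted p = 0.0575 and 0.0709). The zinc importer gene Slc39a4 fell by 0.49 on the log2 scale and Hamp, the iron hormone hepcidin, by 0.57, the last not without ZT18 (adjusted p = 0.0867) or ZT22. The metal response element TGCACNC or TGCGCNC, on either strand, was in 9 of 19 list members with a window and in 28.2% of all genes, so the motif is common in windows of this length. The Mt1 stretch is shown because Mt1 rose and is a known target of the metal-sensing transcription factor, with the motif in capitals.
Mt1 (chr8:94179051-94179081, plus strand): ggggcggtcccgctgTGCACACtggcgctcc
The match lies 16 bases before the annotated start.

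Thyroid hormone genes passed in 9 of 17 cases, 3 higher and 6 lower (3 and 4 without the 3 libraries). Serpina7, thyroxine-binding globulin, rose and measured 8.39 to 64.4 CPM in convR (median 23) and 20.04 to 496 CPM in GF (median 78.8), with overlap (2.61 ± 0.46 SE, edgeR adjusted p = 0.00196). Dio1, the deiodinase that activates thyroxine, fell by 0.57 on the log2 scale, and Hr, a corepressor that thyroid hormone induces, measured 0.398 to 2.4 CPM in convR (median 1.47) and 0.244 to 0.78 CPM in GF (median 0.422) (-1.29 ± 0.18 SE, edgeR adjusted p = 4.45e-04). Over ZT14, ZT18 and ZT22 alone the calls of Serpina7 and Dio1 were lost (edgeR adjusted p = 0.0588 and 0.136). The receptor gene Thrb measured 0.04 and did not pass. Of 17 imprinted and fetal genes 3 were higher and 3 lower. The imprinted RNA H19 rose by 2.41 and measured 0.219 to 1.64 CPM in convR (median 0.679) and 0.403 to 10.7 CPM in GF (median 2.44), and the imprinted zinc finger gene Peg3 fell by 1.01.

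The daily profile of clock genes differed between GF and convR females. Over all genes the GF effect depended on ZT for 71 of 16574 (0.428%), and among core clock genes for 10 of 20. The test was edgeR's joint test of the 5 differences between ZT, at an adjusted p under 0.05. Of the 10, Arntl, Tef, Cry1, Nfil3 and Cry2 lay nearest the threshold, at edgeR adjusted p of 0.0327 to 0.0477. The count of 10 was not rerun under other settings. Per3, a repressor of the clock, stood at 44.6 and 68.8 CPM at ZT6 in convR and at 2.53 and 1.82 CPM in GF. At ZT10 it stood at 136 and 108 CPM in convR and 64.2 and 31.1 CPM in GF, and at ZT14 at 51.9 and 60.4 CPM against 66.2 and 87.1 CPM. GF was thus lower at ZT6 and ZT10 and higher at ZT14, with no overlap at any of them (edgeR adjusted p = 3.67e-04 for the dependence on ZT).

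Dbp, an output factor that the clock drives directly, showed the same order. At ZT6 it stood at 97.9 and 127 CPM in convR and 4.57 and 2.07 CPM in GF, and at ZT14 at 34.9 and 75.8 CPM against 99.3 and 141 CPM (edgeR adjusted p = 0.00148). Bhlhe40, another clock repressor, was at 104 and 133 CPM at ZT6 in convR against 17.2 and 25.7 CPM in GF (edgeR adjusted p = 0.00511). Wee1, a cell cycle kinase under clock control, was at 5.89 and 6.08 CPM against 0.579 and 0.794 CPM (edgeR adjusted p = 0.00759, and 0.0608 without GF ZT6 replicate 1). Arntl, which encodes the activator BMAL1 and peaks opposite to these, was at 6.58 and 9.84 CPM at ZT6 in convR and 32.3 and 35.9 CPM in GF, and at ZT14 at 5.56 and 2.31 CPM against 0.989 and 1.15 CPM (edgeR adjusted p = 0.0327).

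Read as the ZT with the highest mean, in steps of the sampling, the GF profile was later than convR for 5 of the 10 core clock genes called. It was at the same ZT for 3, earlier for 1 (Arntl) and on the opposite side of the day for 1 (Cry2). The highest mean of Arntl was at ZT2 in convR and at ZT22 in GF. Yet GF was above convR at ZT6 and below it at ZT14, so the highest mean alone does not give a direction of shift for Arntl. Of the 3 GF libraries high in Nnt, 1 stands at each of ZT2, ZT6 and ZT10, and the other GF library of ZT6 lay on the same side of convR for all 5 genes named. Without the 3 libraries the effect depended on ZT for 100 genes. In average level Per3 fell (-0.98) and Npas2, which pairs with BMAL1, rose (1.06, but 0.46 over ZT14, ZT18 and ZT22 alone, adjusted p = 0.418). Per2 fell too (-0.60), but not without ZT6 (adjusted p = 0.212), and over ZT14, ZT18 and ZT22 alone it measured 0.03. The average of Arntl (0.46 ± 0.15 SE, edgeR adjusted p = 0.048) lost its call when any 1 of 20 of the 24 libraries was left out and measured -0.38 over those 3 ZT. The average of Dbp did not pass (-0.52 ± 0.17 SE, edgeR adjusted p = 0.0551).

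Genes outside the core clock depended on ZT too. Alas1, the first enzyme of heme synthesis, stood at 1107 and 781 CPM at ZT10 in convR against 247 and 216 CPM in GF, and at ZT22 at 324 and 722 CPM against 33.2 and 55.7 CPM. At ZT14 the groups overlapped (1143 and 1227 against 1408 and 1126 CPM, edgeR adjusted p = 0.0195 for the dependence on ZT). The other genes with the lowest p-values were Camta1, a transcription activator, Fnip2, a folliculin partner, Tspan33, Banp, Rnf103 and Usp6nl. Their edgeR adjusted p lay between 0.00358 and 0.00916. The Camta1 model of GENCODE M21 spans Per3 on the same strand of chromosome 4. Their exons do not overlap there, but Camta1 has an exon length of 32165 bases in the deposited counts. At ZT6 Camta1 averaged 74.8 CPM in convR and 17.3 CPM in GF, and Per3 averaged 56.7 and 2.17 CPM. How the counting split their reads is not given, so the count for Camta1 is uncertain. The number of genes called was unstable. It ran from 14 without convR ZT14 replicate 1 to 328 without GF ZT18 replicate 2, and DESeq2's likelihood ratio test called 998.

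**Figure D4:**
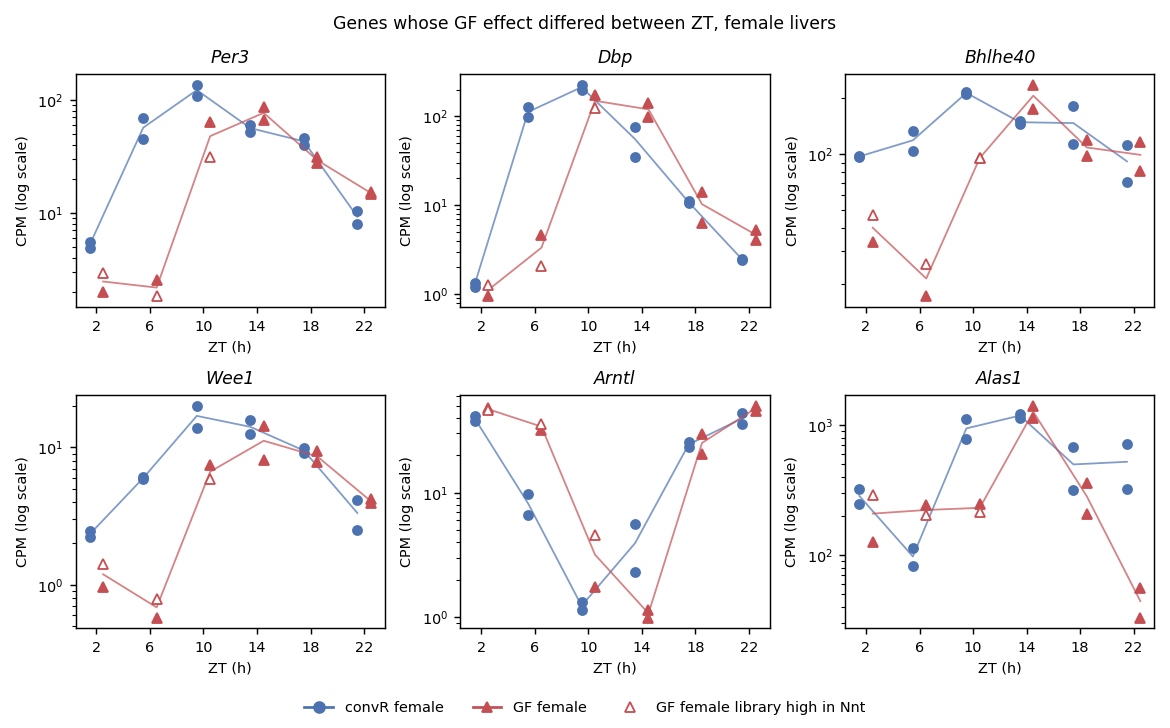
CPM on a log scale (vertical axis) against ZT in hours (horizontal axis) for Per3, Dbp, Bhlhe40, Wee1, Arntl and Alas1, with circles for convR and triangles for GF female libraries, open triangles for the 3 GF libraries high in Nnt, and lines through the means of 2 libraries. At ZT6 the GF triangles of Per3, Dbp, Bhlhe40 and Wee1 lie below the convR circles and those of Arntl lie above them.

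Sex-biased genes and targets of growth hormone, whose secretion pattern sets sex differences in liver, passed in 8 of 42 cases, 6 higher and 2 lower (7 and 8 without the 3). That is 19%, near the 14.6% over all genes. Cyp17a1, a steroid hydroxylase higher in female liver, rose and measured 59 to 212 CPM in convR (median 129) and 136 to 322 CPM in GF (median 266), with overlap (1.06 ± 0.19 SE, edgeR adjusted p = 0.00196). Cish, a feedback inhibitor of growth hormone signalling, fell by 0.56 on the log2 scale, lower at 3 of 6 ZT, and its call was lost without ZT2 (adjusted p = 0.15), ZT10 or ZT22. Stat5b, the signal transducer, measured 0.05 and did not pass.

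The female response differed from the male one for 1443 of 17867 genes (8.08%, 3.72% where the effect was more positive in females and 4.36% where it was more positive in males, edgeR interaction over 48 libraries). Of the 30 genes that the naming rule took as firmest in females, 7 differed. They were chosen for their effect in females, so this count is not comparable with the share over all genes. Cyp3a11 fell by 4.78 on the log2 scale in males, so the female effect was 3.04 less negative (edgeR adjusted p = 1.13e-11). Pltp measured -0.05 in males (female minus male -1.21, edgeR adjusted p = 3.86e-05), Sytl5 -0.08 (-1.30), Gas2l3 -0.04 (-0.74) and Ptp4a3 -0.11 (-0.56), each a decrease measured in females that was near 0 in males. Cyp2d9, higher in GF females, measured -0.58 in males (1.73). Rps6ka1 differed by 0.37. For Csad and Sult1e1 the difference did not pass, at 0.14 and 0.00.

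Against the 8.08% over all genes, 24 of 25 cholesterol synthesis genes differed by sex, 22 of 42 growth hormone and sex-biased genes, 15 of 34 glucuronidation and glutathione transferase genes and 14 of 32 acute phase genes. Hmgcs1 differed by -2.30 and Idi1 by -1.996, Saa1 by 3.75, Hp by 1.05 and Hpx by 0.84. Positive values mark a more positive effect in females. For each of these genes the difference exceeds the female effect (-0.63, -0.54, 1.12, 0.95 and 0.49), so the male estimate had the opposite sign. In females alone 0 of the 25 cholesterol synthesis genes were higher and 1 was lower, so most of these differences do not mark a called change in females. In the clock Per3 differed by -1.14 and Wee1 by -0.83. Sex coincides with the count table the libraries came from, so the 2 cannot be told apart.

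**Figure D5:**
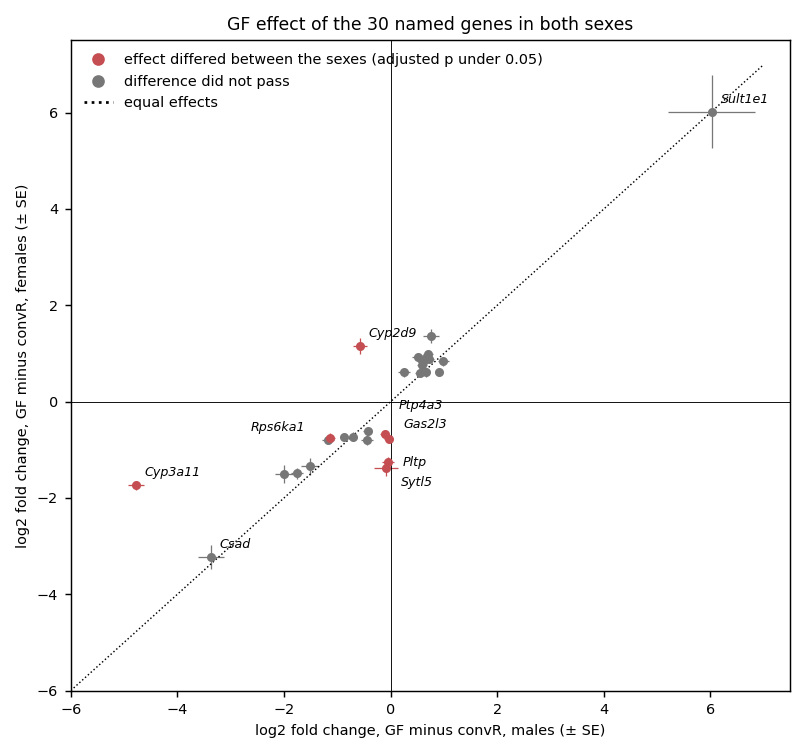
Log2 fold change of GF minus convR in females (vertical axis) against that in males (horizontal axis), both with ± SE bars, for the 30 genes with the firmest increases or decreases in females. Coloured points differed between the sexes at an edgeR adjusted p under 0.05, and the dotted line marks equal effects. Cyp3a11 lies far to the left of the line, Cyp2d9 is above 0 in females and below 0 in males, and Csad and Sult1e1 lie on the line.

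Markers of other cell types were checked in the same libraries. Kupffer cell markers were lower in 1 of 13 cases (Cd163, -0.31), and their summed level was 534 to 784 CPM in convR and 427 to 855 CPM in GF. Of 8 markers for B and plasma cells 3 rose, with the immunoglobulin genes Igkc at 1.06 and Ighm at 0.69 and a summed level of 8.28 to 21.3 CPM in convR and 10.2 to 39.9 CPM in GF. The Igkc call was lost over ZT14, ZT18 and ZT22 alone (edgeR adjusted p = 0.146). Neutrophil and monocyte markers were lower in 2 of 5, S100a9 among them (-1.05). T and NK cell (0 of 10), stellate cell (0 of 8) and erythroid (0 of 5) markers did not pass, and cholangiocyte markers were lower in 1 of 6. Of 8 sinusoidal endothelium markers 1 was higher and 0 lower. Their summed level was 521 to 627 CPM in convR, 410 to 537 CPM in 9 GF libraries and 607 to 634 CPM in the 3 high in Nnt.

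Markers of tissues outside the liver were also summed. Of 10 pancreas markers 4 had counts high enough to be tested, and 3 of these passed, all higher. The 10 summed to 4.75 to 8.98 CPM in convR and 7.01 to 423 CPM in GF (median 9.85). The 423 CPM were those of GF ZT22 replicate 1. The filter can admit a gene through the group where it is high, so the 3 calls describe these libraries only. Adipocyte markers were higher in 2 of 5, with Fabp4 at 4.43 to 5.87 CPM in convR (median 4.81) and 4.93 to 9.3 CPM in GF (median 6.85) (0.63) and a summed level of 7.48 to 17.7 CPM in 9 GF libraries against 4.93 to 7.82 CPM in convR. Skeletal muscle markers summed to at most 0.948 CPM.

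The stress and fasting lists were at or below the 14.6% called over all genes. Of 27 genes of the amino acid stress response and ER chaperones 1 was higher and 1 lower (7.41%), of 16 heat shock genes 0 and 1, and of 23 genes of glucose and fasting metabolism 2 and 1, which at 13% is near the share over all genes. Pck1, the gluconeogenic carboxykinase, measured 0.81 and did not pass.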

How the data were processed

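RNA from whole liver was sequenced after ribosomal RNA removal (TruSeq Stranded Total with Ribo-Zero Gold, per the labels). The files hold each gene's raw exon count as the authors deposited it, and the submitters' processing notes name STAR 2.4.0i and mm10. For the counter, its annotation and its use of strand, nothing is stated in the labels. Coordinates came from GENCODE M21 (GRCm38), matched by Ensembl ID for 36308 of 38087 genes. Promoter sequences came from RefSeq (GRCm38.p6).

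Counts were fitted with edgeR 4.0.16 (R 4.3.3): TMM scaling, filterByExpr with a minimum count of 10, a mean for each status and ZT, and a quasi-likelihood F test on 12 residual degrees of freedom. The same steps were tested on simulated data. Named genes are the 15 higher and 15 lower genes with the lowest p among those with an adjusted p below 0.05, a mean log2 CPM of 1 or more, a log2 fold change of at least 0.58 in size and 1 direction at 6 of 6 ZT, the 10 with the lowest p for dependence on ZT, and members of the gene lists. Predicted gene models and pseudogenes were left out, and a few genes the rule takes are not reported here. The comparison and its members, the lists and the doubted libraries were proposed with earlier results of these data known, while each library was placed in its group by its labels. Each SE was derived from the edgeR test, as the size of the log2 fold change over the square root of F. DESeq2 1.42.0 was an alternative.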

Additional observations from a re-analysis of the deposited data

Results flagged for a closer look

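The GF effect differed between females and males for 1443 genes, and between ZT for 71. Both are differences between groups under the same contrast, tested as interactions in edgeR. Of the genes taken by the naming rule or as list examples, 33 of 126 differed by sex, against 8.08% of all genes. These genes were chosen in large part for their effect in females, so the 2 shares are not comparable. The effect was higher in females for 10 and higher in males for 23. On the log2 scale, the female minus male difference was below -1 for Hmgcs1 (-2.30), Cish (-2.13), Idi1 (-1.996), Cyp17a1 (-1.91), Sytl5 (-1.30), Pltp (-1.21), Per3 (-1.14) and Scd1 (-1.13). It lay between -1 and 0 for Cyp7a1 (-0.94), Me1 (-0.84), Wee1 (-0.83), Per2 (-0.79), Gas2l3 (-0.74), Fnip2 (-0.74), Gstt3 (-0.73), Bhlhe40 (-0.71), Sult1a1 (-0.68), Camta1 (-0.65), H2-Q7 (-0.60), Mat1a (-0.59), Ptp4a3 (-0.56), Pola1 (-0.38) and Rnf103 (-0.36). It was above 0 for Rps6ka1 (0.37), Lbp (0.66), Ugt2b1 (0.76), Hpx (0.84), Hp (1.05), Tspan33 (1.19), Cyp2d9 (1.73), Cyp3a11 (3.04), Cyp3a44 (3.09) and Saa1 (3.75). The GF effect depended on ZT, with the F value on 5 degrees of freedom in brackets, for Per3 (36.8), Dbp (27.7), Camta1 (22.8), Fnip2 (22.2), Bhlhe40 (19.9), Tspan33 (18.3), Banp (17.7), Wee1 (17.7), Rnf103 (17.2), Usp6nl (16.7), Alas1 (13.8), Arntl (11.4) and Cish (11.3). Technical and biological sources of these differences were not tested.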

How the results depend on the processing

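The count of 2417 genes with a GF effect stayed between 1869 and 3091 under other size factors, low-count filters, robust dispersions, an additive design, DESeq2's Wald test and the fit in all 48 libraries. It rose to 4082 with library size as the only scaling, of which 11.5% were higher against 48% with TMM. It was 1476 without ZT2, 1374 without ZT10, 1513 without ZT22 and 789 over ZT14, ZT18 and ZT22 alone. Leaving out single libraries gave 1764 to 2776. Without the library with pancreas genes it was 1896, and without that library and the 3 high in Nnt, an alternative chosen after seeing the data, 2109. Of 112 called genes taken by the naming rule or as list examples, 67 passed under every alternative run. Over ZT14, ZT18 and ZT22 alone Per2 (0.033) and Arntl (-0.38) changed sign and 38 of these genes lost their call. Calls were also lost for Gls2 and Mcm5 without ZT14 and for Gnmt and Ighm without ZT22.

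The count of 71 genes whose GF effect depended on ZT was less stable. DESeq2's likelihood ratio test called 998, with no adjusted p for 2571 genes. Leaving out single libraries gave 14 to 328, and for 19 of the 24 the count moved by over 1.5 times. The count fell to 14 without convR ZT14 replicate 1, 16 without GF ZT6 replicate 1 and 17 without convR ZT2 replicate 1, and rose to 137 without GF ZT18 replicate 1 and 328 without GF ZT18 replicate 2. The cause was not tested. The 1443 genes that differed by sex stayed between 1310 and 1825 under all 4 alternatives.

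With the replicate number as a block the counts were 2361 for the GF effect, 32 for the dependence on ZT and 1449 for the difference by sex. At each ZT the difference between replicates 1 and 2 over all genes in GF was correlated with that in convR. The correlation was -0.12 to 0.13, which gave no sign that the numbers pair GF with convR libraries. Whether they mark a pairing is not said by the labels.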
